A study of Caenorhabditis elegans with 2 samples.

Results

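Described here are 32 genes of Caenorhabditis elegans that act in most or all neurons, at the synapse, or in the making of one transmitter. They were listed by name, out of 19973 protein-coding genes on the nuclear chromosomes, and not by their values. The list was, however, made with earlier results of these data known. All 32 names were found in the annotation. They were scored for binding sites of NFYA-1, measured by chromatin immunoprecipitation and sequencing, a method that recovers the DNA to which a tagged protein is bound. The question asked of them was where NFYA-1 lay at each gene, and how strongly compared with other genes.

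The material was whole late embryos, labelled hermaphrodite, of 1 strain, OP404, in 2 biological replicates. The strain carries the mutation unc-119(tm4063) on chromosome III and the transgene wgIs404, which expresses NFYA-1 with a GFP-FLAG tag at its C terminus. Sonicated chromatin was precipitated with an antibody against GFP, per the labels' descriptions. Both replicates share this genotype, and no control samples, second strain or second stage were analysed here, so there is 1 group and no comparison between conditions. Neurons are a minority of the cells of an embryo, and binding in neurons cannot be told apart from binding in other cells of the whole animal. The gene unc-119 is itself one of the 32, its own locus is mutated in this strain, and the sources used here do not say whether the transgene holds a copy of it.

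NF-Y is a complex of the subunits NF-YA, NF-YB and NF-YC that binds the sequence CCAAT, most often in promoters. Synaptic transmission runs as a cycle. Vesicles are filled with transmitter, carried along the axon by kinesin motors, docked at the active zone, fused by SNARE proteins when calcium enters, and taken back by endocytosis. Neuropeptides travel in a separate kind of vesicle, the dense core vesicle. Genes of this common machinery are switched on in nearly all neurons, whereas the genes for making and loading one transmitter are switched on in selected neurons only.

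The list of regions that passed the authors' reproducibility analysis, called here the peak list, held 4098 regions with a median width of 356 bp. Their signal, an enrichment value given by the authors and used here only to rank regions within 1 list, ran from 58.2 to 9543 with a median of 109. Longer lists that also hold weak background regions had 15515 entries for the pooled replicates, 21476 for replicate 1 and 28596 for replicate 2. Read depth is unknown because the lists carry no read counts.

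NFYA-1 summits lay at the promoters of 10 of the 32 genes (31.2%), against 11.2% of all coding genes. A promoter here runs from 500 bp upstream to 100 bp downstream of any annotated start of a coding transcript, and the summit is the highest point of a peak. The 10 genes were the synaptobrevin gene snb-1, rab-3, the active zone gene syd-2, the synaptojanin gene unc-26, ida-1, ric-19, egl-21, the kinesin gene unc-116, its adaptor gene unc-16 and rgef-1. Their signals were mostly low. Only syd-2 and unc-16 stood above the median signal of the 1812 peaks at coding promoters, which was 107, and 8 of the 10 stood at or below it. A further 6 genes (18.8%) had a summit in an intron and none at a promoter, against 3.0% of all genes. They were unc-64, unc-31, unc-25, unc-104, jnk-1 and unc-119.

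Peaks also lay farther upstream. A summit stood farther than 500 bp and up to 2000 bp upstream of the first annotated start of 8 of the 32 genes (25%), against 7.65% of all genes. These were unc-64, unc-13, unc-57, unc-11, egl-3, unc-104, unc-116 and jnk-1. Counted from 2000 bp upstream to the end of the gene, 20 of the 32 (62.5%) had a peak, against 20.5% of all genes. These upstream rules were added after the values were seen. The members are long genes with a median length of 6.08 kb, against 2.03 kb for all coding genes, and a long gene can hold more summits. Among genes of 5 kb or more, 14 of 19 members and 38.2% of 3233 genes had a peak by the widest rule. Among shorter genes the figures were 6 of 13 and 17.1% of 16740. The members stood above the share of all genes in both length classes.

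**Figure D1:**
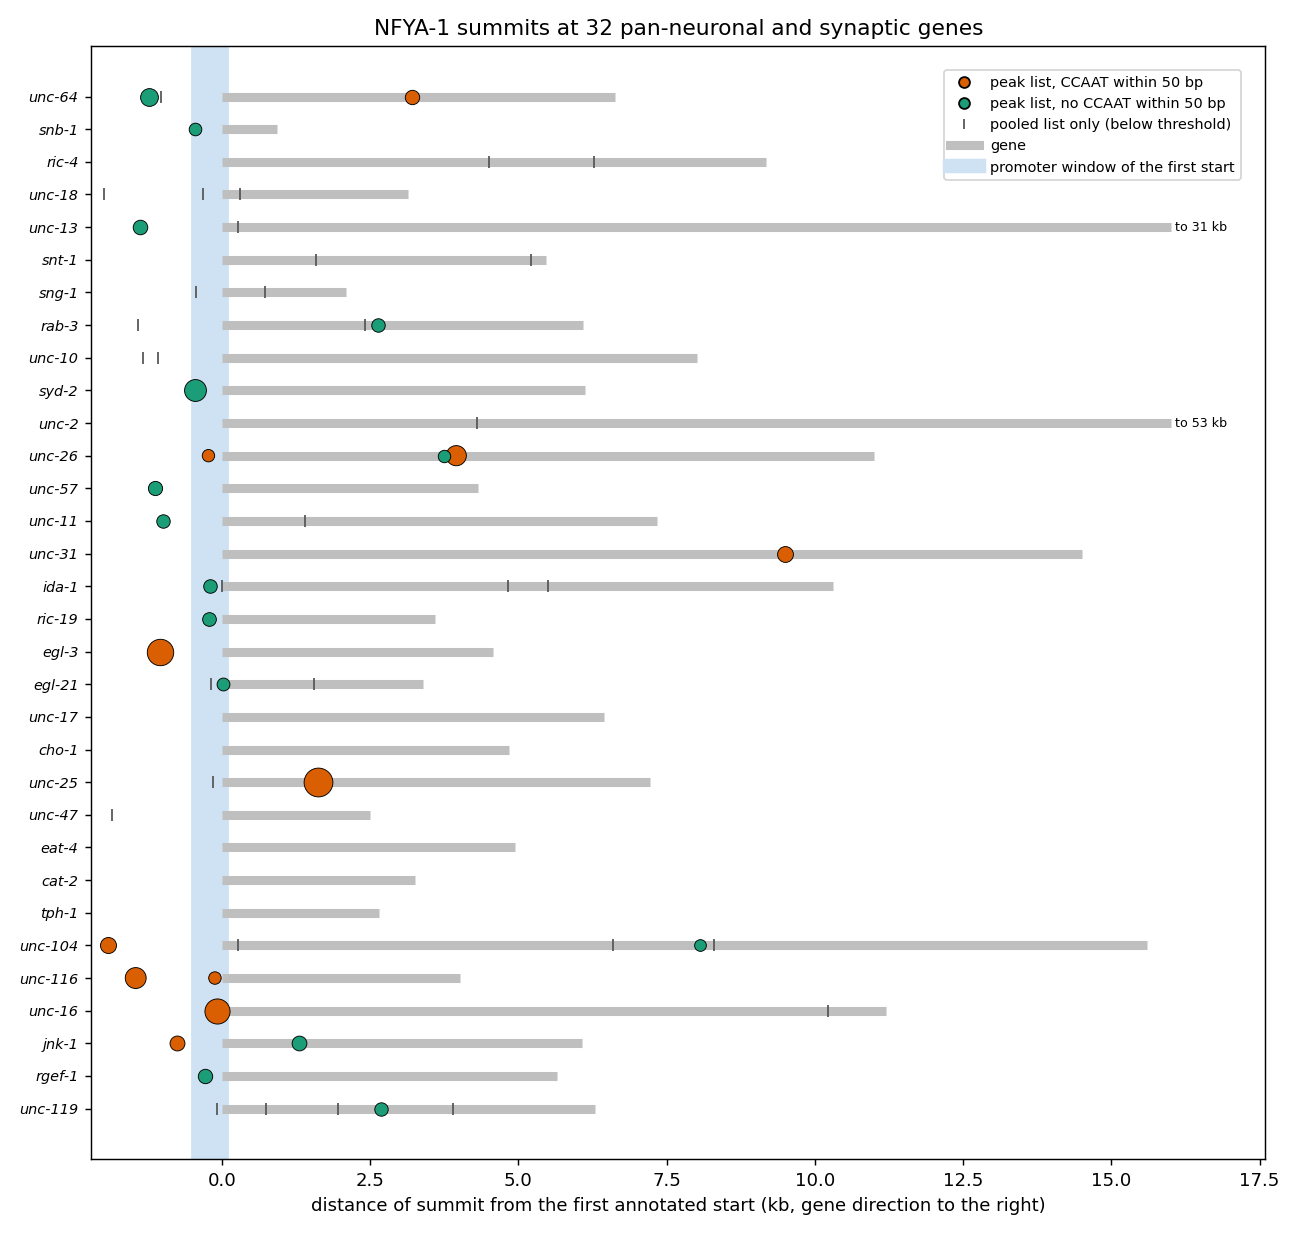
Positions of NFYA-1 summits at the 32 genes, drawn from the first annotated start of each gene (x axis, kb, gene direction to the right). Circles are the 26 peaks of the peak list, with area growing with signal and orange for CCAAT within 50 bp. Short lines are pooled regions below the threshold, grey bars genes and the blue band the promoter window of the first start. Regions below the threshold that lie beyond the right edge of the plot, at unc-2 and unc-13, are not drawn. The largest circles are those of unc-25 (intron), egl-3 (upstream) and unc-16 (promoter).

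In the map of summits along the genes, peaks lie upstream of, within and downstream of the promoter window. The rows of the transmitter genes, from unc-17 to tph-1, hold the 1 peak of unc-25.

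The DNA under the strongest member peaks and under those that share sequence is printed first, since the results below turn on which of them hold a CCAAT box. Each stretch reaches 50 bases to either side of the summit, in build ce11 (WBcel235, the RefSeq copy), read 5′ to 3′ on the strand of the gene, with CCAAT or its reverse complement ATTGG in capitals. The promoter peaks shown are the 2 strongest, which are those of unc-16 and syd-2, and that of ida-1 for its repeat. Their locations are chrIII:9546125-9546225 on the plus strand for unc-16, chrX:10555646-10555746 on the minus strand for syd-2 and chrIII:5755294-5755394 on the plus strand for ida-1.
unc-16 promoter: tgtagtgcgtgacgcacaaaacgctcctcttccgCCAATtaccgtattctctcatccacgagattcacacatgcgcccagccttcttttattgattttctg
syd-2 promoter: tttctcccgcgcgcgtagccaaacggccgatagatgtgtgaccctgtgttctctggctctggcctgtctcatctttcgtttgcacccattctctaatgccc
ida-1 promoter: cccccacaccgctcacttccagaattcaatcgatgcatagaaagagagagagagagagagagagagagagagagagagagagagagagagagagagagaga

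The intron peaks with CCAAT come next, for the comparison of their sequences below. They lie at chrIII:12944218-12944318 (plus strand) for unc-25, chrIV:13268511-13268611 (minus strand) for unc-26, chrIII:13280423-13280523 (plus strand) for unc-64 and chrIV:12783316-12783416 (plus strand) for unc-31.
unc-25 intron: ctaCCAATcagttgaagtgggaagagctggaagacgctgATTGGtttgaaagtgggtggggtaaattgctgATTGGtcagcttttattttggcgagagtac
unc-26 intron: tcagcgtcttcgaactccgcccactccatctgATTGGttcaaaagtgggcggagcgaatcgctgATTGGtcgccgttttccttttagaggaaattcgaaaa
unc-64 intron: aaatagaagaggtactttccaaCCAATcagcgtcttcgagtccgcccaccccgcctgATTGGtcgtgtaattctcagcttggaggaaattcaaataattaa
unc-31 intron: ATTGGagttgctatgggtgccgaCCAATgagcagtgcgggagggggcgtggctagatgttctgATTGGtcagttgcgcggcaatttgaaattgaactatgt

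The upstream peaks with CCAAT are shown for comparison with these, and include the strongest upstream peak, that of egl-3. They lie at chrV:10174749-10174849 (minus strand) for egl-3, chrIII:8356575-8356675 (minus strand) for unc-116, chrII:6993026-6993126 (plus strand) for unc-104 and chrIV:6956843-6956943 (plus strand) for jnk-1.
egl-3 upstream: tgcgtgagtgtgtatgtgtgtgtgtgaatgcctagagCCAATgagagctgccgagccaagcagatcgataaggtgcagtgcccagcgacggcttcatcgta
unc-116 upstream: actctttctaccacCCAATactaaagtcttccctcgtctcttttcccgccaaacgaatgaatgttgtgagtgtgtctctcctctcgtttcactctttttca
unc-104 upstream: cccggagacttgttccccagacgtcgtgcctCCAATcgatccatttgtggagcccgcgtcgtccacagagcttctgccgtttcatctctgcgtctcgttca
jnk-1 upstream: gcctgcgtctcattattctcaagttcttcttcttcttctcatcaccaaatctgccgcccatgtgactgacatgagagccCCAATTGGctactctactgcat

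Among the genes of vesicle fusion, 1 of 5 had a promoter peak and 3 of 5 had a peak by the widest rule, against 11.2% and 20.5% of all genes. The counts by role below are to be read against these shares. For genes of 5 kb or more the share by the widest rule was 38.2%. Each role holds few genes, and no test of a role was made. The v-SNARE gene snb-1, which encodes synaptobrevin (WBGene00004897), had a summit at V:6656960, 459 bp upstream of its start, with a signal of 73.6. That peak was uneven between replicates, ranking 2061 in replicate 1 and 4141 in replicate 2, with summits displaced by 90 bp one way and 56 bp the other. Its window had the lowest GC content of the member promoter peaks, 30.7%, and held no CCAAT. The syntaxin gene unc-64 (WBGene00006798), whose product is the partner of synaptobrevin at the plasma membrane, had a peak 1223 bp upstream with a signal of 170, and another in an intron with a signal of 103. The upstream peak ranked 1055 and 1063 in the replicates, the smallest difference in rank between replicates among the 26 member peaks. It held a run of 25 bases of alternating GA or CT and no CCAAT.

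The other genes of fusion had weaker or more distant regions. The gene unc-13, whose product primes vesicles for fusion, had a peak 1373 bp upstream (signal 106, ranks 1785 and 2887). For unc-18, whose product binds syntaxin, a region 311 bp upstream had a signal of 53.4 and ranked 4521 in the pooled list, below the last of the 4098 peaks. It was present in both replicates, at ranks 5262 and 3978. The SNAP-25 homologue gene ric-4 had only 2 intron regions in the pooled list, at signals of 24 and 39.9.

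Of the genes of the vesicle membrane, rab-3 alone had a peak. It encodes the small GTPase of synaptic vesicles, and its summit (II:5725221, signal 87.3, ranks 2538 and 2783) lay 491 bp upstream of an internal start and 2632 bp downstream of the first start. It thus counts as a promoter peak and also lies within an intron of the longer transcript. The synaptotagmin gene snt-1, the calcium sensor of release, had no promoter region in any list, and its strongest pooled region was in an intron at a signal of 46.5. The synaptogyrin gene sng-1 had a promoter region below the threshold, 432 bp upstream with a signal of 40.7.

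At the active zone, syd-2 had one of the stronger member peaks. The gene encodes liprin-alpha, a scaffold of the presynaptic active zone (WBGene00006364, X:10549106 to 10555239). Its summit at X:10555696 lay 457 bp upstream of the start with a signal of 269, place 181 of the 1812 promoter peaks. It ranked 301 in replicate 1 and 578 in replicate 2. The replicate summits fell 51 bp and 0 bp from it, and in replicate 1 that displacement put the summit beyond the promoter window. A non-coding RNA gene, F59F5.9, overlaps the summit. The RIM gene unc-10, another scaffold, and unc-2, which encodes the presynaptic calcium channel, had no peak. The pooled list held 9 regions at unc-2, a gene of 52.6 kb, with signals from 22.6 to 45.9, and 1 of these (40.8) was at an internal promoter.

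All 3 genes of vesicle endocytosis had a peak by the widest rule, against 20.5% of all genes, but only unc-26 had one at a promoter. The gene unc-26 encodes synaptojanin, a lipid phosphatase that helps strip the clathrin coat. It held 3 peaks, more than any other member, but the regions of its intron peaks overlap. Whether these are separate sites was not tested. The promoter peak, 224 bp upstream, had a signal of 70 and ranks of 3108 and 3287, and a CCAAT box stood 46 bp from its summit. Of the intron peaks, the stronger (IV:13268561, signal 225) ranked 586 and 729 and the weaker (IV:13268760, signal 70.9) ranked 8315 and 4701. The weaker intron peak thus lay below the strongest 4098 regions of either replicate. Its window held no CCAAT. It held an inverted repeat whose longest stretch of exact match was 14 bases, and the match goes on beyond a mismatch. The endophilin gene unc-57 and the clathrin adaptor gene unc-11 had their peaks 1131 and 990 bp upstream, with signals of 100 and 86.9.

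All 5 genes of dense core vesicles and neuropeptides had a peak, 3 of them at the promoter, against 20.5% and 11.2% of all genes. These were ida-1, which encodes a receptor phosphatase-like protein of dense core vesicles, ric-19, the homologue of a human islet cell autoantigen, and egl-21, which encodes the carboxypeptidase that trims neuropeptides. Their signals were 88.5, 91.2 and 76.9, with summits 195 and 217 bp upstream and 20 bp downstream of the start. The replicates ranked them close together, at 2372 and 2955 for ida-1, 2462 and 2710 for ric-19, and 3490 and 2807 for egl-21. None held CCAAT within 50 bp. The window of ida-1 was mostly a run of 59 bases of alternating GA, as printed above, and a non-coding RNA gene, B0244.14, overlaps it. The part of such a repeat in the signal was not tested. The peak of ric-19 also lay in the promoter of pmlr-1, whose start was 211 bp from the summit, so it cannot be given to either gene alone.

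The other peptide genes had stronger peaks away from the promoter window. The convertase gene egl-3, whose product cuts neuropeptide precursors (WBGene00001172, V:10169177 to 10173753), had a peak 1046 bp upstream at V:10174799. Its signal of 404 ranked 170 in the peak list, 143 in replicate 1 and 226 in replicate 2. No other coding start lay within 4736 bp of it. The gene unc-31, whose product primes dense core vesicles for release, had an intron peak of signal 130 (ranks 1402 and 2013) with 3 CCAAT boxes within 50 bp.

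The 7 genes of single transmitters, which are 2.5 to 7.23 kb long, had few peaks. None had a promoter peak and 1 had an intron peak and so a peak by the widest rule, against 11.2% and 20.5% of all genes. With 7 genes, these counts are near those shares. Of the other 25 members, 10 had a promoter peak and 19 had a peak by the widest rule. No test of this difference was made. The acetylcholine genes unc-17 and cho-1, for vesicular loading and choline uptake, had no region of any list at a promoter, and their nearest peaks were 12.1 and 14.4 kb from a start. The same held for the vesicular GABA transporter gene unc-47 (8.52 kb), the vesicular glutamate transporter gene eat-4 (6.92 kb) and the dopamine synthesis gene cat-2 (2.46 kb, signal 332). The serotonin synthesis gene tph-1, with its nearest peak 20 kb away, had a promoter region in the list of replicate 2 only.

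The exception among them, unc-25, had the strongest peak of all members. The gene encodes glutamate decarboxylase, the enzyme that makes GABA (WBGene00006762, III:12942651 to 12949883). The summit at III:12944268 lay in an intron, 1617 bp downstream of the first start. Its signal was 484, and it ranked 89 in replicate 1 and 137 in replicate 2. Among the 926 peaks in introns and away from coding promoters it held place 25. In the pooled list a much weaker region (35.8, rank 7096) lay 150 bp upstream of the first start.

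All 4 genes of axonal transport had a peak by the widest rule, against 20.5% of all genes. The gene unc-16 encodes an adaptor that links kinesin to its cargo and to JNK (WBGene00006755, III:9546258 to 9557450). Its promoter peak at III:9546175, 83 bp upstream of the start, was the strongest of the 10, with a signal of 363 and place 88 of 1812. The ranks of 231 and 248 in the replicates were close to each other and to the 229 of the peak list. A CCAAT box stood 14 bp from the summit, and a non-coding RNA gene, ZK1098.13, overlaps it. The gene unc-116, for the heavy chain of conventional kinesin, had a weak promoter peak 115 bp upstream (71.9, ranks 2978 and 3706) and a stronger one 1451 bp upstream (244, ranks 417 and 795). Both held CCAAT.

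The vesicle motor gene unc-104 and the kinase gene jnk-1 had peaks upstream and in introns. For unc-104 the upstream peak (133, ranks 1308 and 1921) was 1911 bp from the start and held CCAAT. Its intron peak was the weakest of all members at 60.4, ranked 5522 and 4062, and lay at a tRNA gene inside the intron. For jnk-1 the upstream peak (112, ranks 2526 and 1543) was 748 bp from the start, and the intron peak (110, ranks 1722 and 2818) was 1269 bp upstream of an internal start. The upstream window of jnk-1 held CCAATTGG, in which the box reads on both strands.

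Of the pan-neuronal genes used to drive reporters, rgef-1 had a promoter peak and unc-119 an intron peak. The gene rgef-1 encodes a Ras guanine nucleotide exchange factor, and its summit lay 282 bp upstream (V:9561956, signal 103, ranks 2016 and 2582). Its window held no CCAAT, and 86% of the bases on 1 strand were pyrimidines. The intron peak of unc-119 had a signal of 86 (ranks 3275 and 2275), and its promoter regions in the pooled list had signals of 28.7 and 50.6. Since unc-119 is mutated in this strain, these values describe the mutant locus and any copy in the transgene together.

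**Figure D2:**
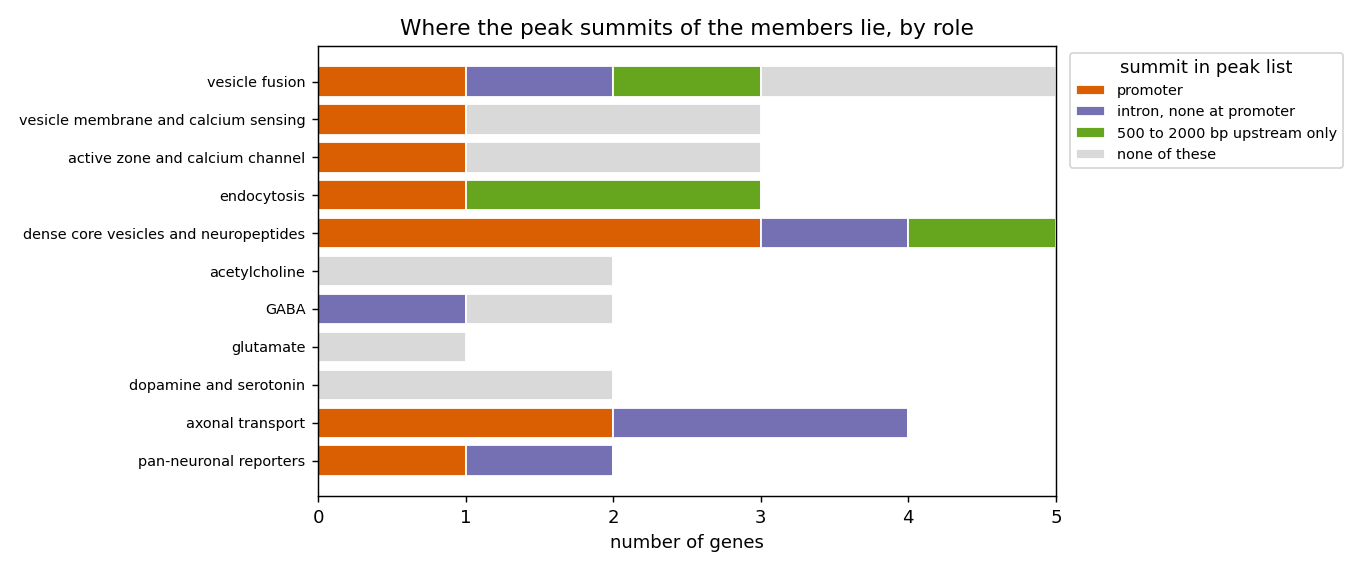
Number of genes (x axis) in each of the 11 roles (y axis), divided by where the summits of the peak list lie. Each gene is counted once, as promoter, else intron, else 500 to 2000 bp upstream, else none. All genes of endocytosis, of dense core vesicles and neuropeptides, of axonal transport and of the pan-neuronal reporters have a peak, and among the transmitter roles a peak is found for GABA only. Of all coding genes, 20.5% have a peak from 2000 bp upstream to the gene end.

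The bar plot by role gives the same counts, with 10 promoter genes, 6 intron genes, 4 upstream genes and 12 without a peak. The 12 were ric-4, unc-18, snt-1, sng-1, unc-10, unc-2, unc-17, cho-1, unc-47, eat-4, cat-2 and tph-1.

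Every one of the 26 member peaks lay in a region of both replicate lists, with both replicate summits within 100 bp. This includes the 10 promoter, 8 intron and 8 upstream peaks. Of the 26, 24 stood among the strongest 4098 regions of replicate 1, 24 among those of replicate 2 and 23 in both. Outside them in replicate 1 were the weaker intron peak of unc-26 and the intron peak of unc-104, and in replicate 2 the same unc-26 peak and the peak of snb-1. The peak list was made from the pooled replicates, so these replicate counts are not independent of it. The same counts over all 4098 peaks are not given here. The member counts therefore do not show whether these peaks were better or worse reproduced than others.

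**Figure D3:**
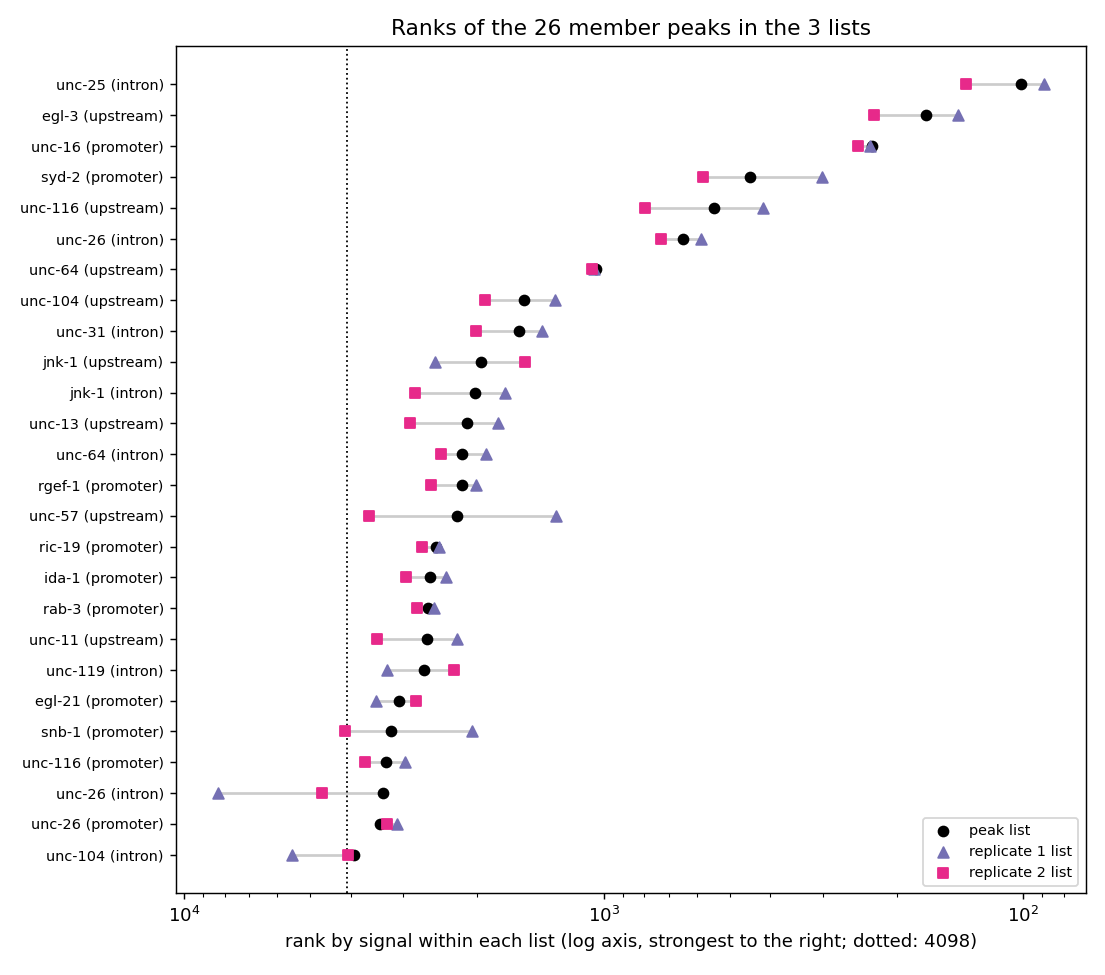
Rank by signal (x axis, log scale, strongest to the right) of the 26 member peaks (y axis) in the peak list (circles), in the list of replicate 1 (triangles) and in that of replicate 2 (squares). The dotted line marks rank 4098. The peaks of unc-25, egl-3 and unc-16 hold ranks between 89 and 248 in all 3 lists, and the weaker unc-26 intron peak ranks 8315 in replicate 1.

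The plot of ranks shows the peaks in 2 parts. The peaks of unc-25, egl-3, unc-16, syd-2, unc-116 (upstream) and unc-26 (the stronger intron peak) ranked 795 or better in every list. The others ranked from 1043 to 3946 in the peak list, from well above its median signal down to near its threshold.

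The set of promoters changed with the list. In the pooled list 15 of 32 members (46.9%) had a promoter region, against 23.7% of all genes and 47.5% of 118 related synaptic and neuronal genes. The 10 were all among them, and the genes added were unc-18, sng-1, unc-2, unc-25 and unc-119. In the list of replicate 1 the count was 15 of 32 (46.9%), against 26.5% of all genes and 50% of the related genes, and syd-2 was not among the 15. In that of replicate 2 it was 17 of 32 (53.1%), against 31.1% and 54.2%, without snb-1 and rab-3. Both of these genes had a region in replicate 2, with its summit upstream of the promoter window. In these longer lists the members thus did not stand above the related genes. The regions that added these genes to the pooled list had signals from 28.7 to 53.4, under the 58.2 of the weakest peak.

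**Figure D4:**
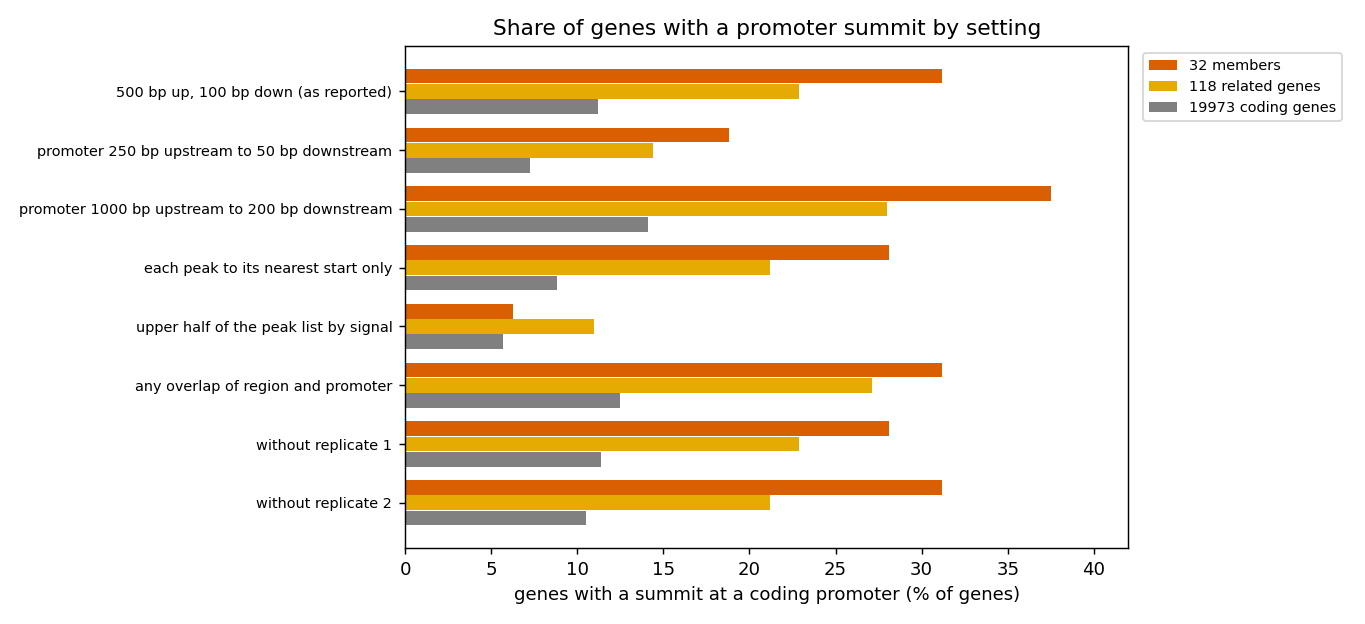
Percent of genes with a summit at a coding promoter (x axis) for the 32 members, 118 related neuronal genes and all 19973 coding genes, under each setting (y axis). In the upper 50% of the peak list by signal the members fall to 6.25%, near the 5.68% of all genes and below the 11% of the related genes. In the other settings plotted, all on the peak list or the strongest 4098 regions of 1 replicate, the members stay above both other groups.

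The promoter count depended on the signal allowed. Within the upper 50% of the peak list by signal, a choice that keeps the stronger peaks, only unc-16 and syd-2 remained. They were 2 of 32 members (6.25%), against 5.68% of all genes and 11% of the related genes. The members' promoter share was therefore above that of all genes only with the weaker peaks included. With a narrower window, from 250 bp before to 50 bp after the start, the count was 6 of 32 (18.8%) against 7.28%, with snb-1, rab-3, syd-2 and rgef-1 no longer counted. The plot of shares by setting shows these together. Members with 1 start had a promoter peak in 5 of 10 cases, against 8.86% of such genes, and those with 2 or more starts in 5 of 22 cases, against 17.7%. The count for 2 or more starts is near the share of all such genes. By length, 6 of 19 members of 5 kb or more had a promoter peak, against 17.5% of such genes. Among shorter genes it was 4 of 13, against 9.95%.

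The intron count was split by length as well. All 6 members with an intron peak only were 5 kb or longer, 6 of 19 such members against 12.5% of such genes. Per unit of intron, the members held 9 summits in 180 kb, or 4.99 per 100 kb, against 3.43 for all coding genes. That count includes the rab-3 summit, which is also at a promoter. The intron excess of the members was therefore smaller per base than per gene.

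The CCAAT box was not a common feature of the member promoter peaks. With both strands read, the box was found within 50 bp of the summit in 3 of the 10 promoter peaks (unc-16, unc-116 and unc-26), against 20.4% of the 1812 promoter peaks. Only in unc-16 did it lie within 25 bp of the summit. In the whole promoter window, 6 of the 10 genes with a promoter peak and 19 of the 22 without one held CCAAT, against 75.7% of all coding genes. A box in the window is thus widespread and did not mark the genes with a peak.

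Away from promoters the box was more frequent. It was found in 4 of 8 member intron peaks, against 54.5% of 926 intron peaks, and in 4 of 8 upstream peaks, against 32.9% of all 4084 nuclear peaks. These shares are near those of peaks of the same kind at other genes for introns, and rest on 8 peaks each. For upstream peaks no share of the same kind is given here, since the nuclear peaks include those at promoters and in introns. The sequence CTCTC or its reverse complement GAGAG was found in 5 of 10 member promoter peaks, against 41.3% of all promoter peaks. It was found in 3 of 8 member intron peaks, against 38.6% of all intron peaks, and in 6 of 8 upstream peaks, against 44.7% of all nuclear peaks. The median GC content of the windows was 47% at member promoters and 47.5% in member introns, against 47.5% for all promoter peaks and 47.5% for all intron peaks. For the member upstream peaks it was 49.5%, against 48.5% for all nuclear peaks.

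The intron peaks of unc-25 and unc-26 held a pair of CCAAT boxes on the same strand with starts 32 bp apart. Such a pair, searched within 100 bp of the summit, occurred in 20.2% of all intron peaks and in 1.21% of all promoter peaks, and in none of the 10 member promoter peaks. The paired elements are printed on the strand on which the boxes read CCAAT, aligned on the boxes, at chrIII:12944247-12944303 (minus strand) for unc-25 and chrIV:13268533-13268589 (plus strand) for unc-26.
unc-25 element: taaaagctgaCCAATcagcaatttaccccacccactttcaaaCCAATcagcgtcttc
unc-26 element: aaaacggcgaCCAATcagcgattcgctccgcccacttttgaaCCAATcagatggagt

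Aligned in this way, 39 of the 57 bases were identical. From the first base of one box to the last base of the other it was 30 of 37, and between the boxes 20 of 27. The elements were chosen for the pair and aligned on it, so the bases of the boxes within the 39 and the 30 matched by choice. The elements lie on different chromosomes, in genes of different roles, and each lies within an intron on the strand opposite to its gene. The unc-64 intron peak shared a stretch of 17 bases with that of unc-25, printed here because it holds 1 of the boxes.
unc-64 and unc-25 shared: aaCCAATcagcgtcttc

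That stretch, on either strand, was present in 28 of the 4084 nuclear peaks, 19 of them among the 926 intron peaks and 2 among the 1812 promoter peaks. The unc-64 peak had its boxes on opposite strands and no pair at 32 bp. The intron peaks of unc-31 and unc-25 shared 12 bases, ctgaCCAATcag. These stretches were thus found in peaks of many other genes as well, and no test of a difference from other intron peaks was made.

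Other genes of the same processes were also counted, from a list likewise made with earlier results of these data known. Of 118 related synaptic and neuronal genes, 27 (22.9%) had a promoter peak, against the 11.2% of all genes, with a median signal of 99.2. The endocytic adaptor gene dpy-23 led them with 479. Next were unc-14, a partner of kinesin cargo adaptors (369), the synaptic scaffold gene lin-7 (305, a peak shared with Y54G11A.17 and elof-1) and the epsin gene epn-1 (299). The axon growth gene unc-76 followed with 262 and was the only one of the 10 strongest with CCAAT. The others of the 10 were ric-3, for a chaperone of acetylcholine receptors (187), the axon growth gene unc-69 (174, shared with ostf-4), sbt-1, for a chaperone of the convertase EGL-3 (148), the clathrin adaptor gene aps-2 (131) and jkk-1, for a kinase that activates JNK-1 (126).

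Counted by role, the related genes differed in how many had a promoter peak, to be read against the 11.2% of all genes. Of the 13 further genes of transmitter synthesis and transport, 0 had a promoter peak. An intron peak was found at 2 of the 13, against 3.0% of all genes, and an upstream peak at 1 of the 13, against 7.65%. Promoter peaks were found at 7 of 16 genes of axonal transport and the neuronal cytoskeleton, 4 of 9 of endocytosis and 4 of 12 of vesicle fusion. Transmitter receptors had 2 of 18 and channels 1 of 14, near the share of all genes, and with 13 genes a count of 0 is not far from it. No test between roles was made. CCAAT lay within 50 bp of the summit at 3 of the 27.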

How the data were processed

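The authors deposited region lists in narrowPeak format: 1 per replicate, 1 from pooled replicates and 1 of regions that passed a reproducibility analysis (IDR). The last holds the 4098 regions of highest signal of the pooled list. Lists in ce11 were used and lists in ce10 were not. The signal of each region, as deposited, is the authors' enrichment value, of unstated scale, and ranks regions within 1 list only. The deposited −log10 q-value was used for no test. For aligner, caller and thresholds: not given in the sources used here. Depth is unknown, and differences in depth could change the length of each list.

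Gene models came from Ensembl release 115 (WBcel235, the assembly of ce11), and coordinates are 1-based. Summits were assigned to promoters first, then introns. A peak could count for more than 1 gene. Counts of members are set beside the same count over all coding genes, with no test, since there is 1 group and the members and lists were chosen with earlier results of these data known. All members are named. Other genes are named where they share a member's peak, or are among the 10 strongest of the related list, of which 118 of 120 names matched. Non-coding and tRNA genes at summits, and details of sequence, were named after their values were seen. Assignment was tested on simulated data. Scripts used Python 3.11.15, pandas 2.3.3, Biopython 1.88 and matplotlib 3.10.9.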

Additional observations from a re-analysis of the deposited data

How the results depend on the processing

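With the window of 250 bp before to 50 bp after the start, 6 members, 17 related genes and 1455 coding genes had a promoter peak in place of 10, 27 and 2233, and 8 members in place of 15 in the pooled list. In the upper 50% of the peak list by signal the counts were 2, 13 and 1134. Within it 5 members in place of 8 had a peak 500 to 2000 bp upstream, and 10 in place of 20 by the widest rule. The shares of all coding genes by these rules in that setting are not given here. Whether the members stayed above all genes there is therefore not shown. With CCAAT searched 25 bp to each side, 1 member promoter peak in place of 3 held it. The other 28 counts stayed within 1.5 times. Leaving out 1 replicate gave 9 to 10 members at promoters, 4 to 7 in introns, 8 to 9 upstream and 20 to 20 by the widest rule. At promoters it gave 25 to 27 related and 2105 to 2267 coding genes. The whole list of 1 replicate, in place of the pooled list, gave 15 to 17 members. Those are the replicate counts given above, from longer lists that call 26.5% and 31.1% of all genes, against 23.7%. For the intron, upstream and widest counts without 1 replicate, and the pooled count with the narrower window, shares of all coding genes are not given. Without replicate 1, snb-1 and rab-3 were lost and unc-18 was gained at promoters. Without replicate 2, syd-2 was lost and unc-119 gained at promoters; unc-104 lost its intron peak, and unc-119 left the intron count because it then had a promoter summit. The cause was not tested. No paired analysis was possible because there is 1 group. Read depth is unknown, so no limit can be set on what weaker binding was missed, and with 32 genes 1 gene moves a share by about 3 percentage points.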
